A study of Mus musculus with 18 samples.

Results

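Genes of glycolysis and of the response to low oxygen were followed as a set of 38 genes in liver tumours that arose when cells of MC38, a line from a mouse colon carcinoma, were injected into the spleen of wild-type mice. The members were the rows of both deposited gene tables whose symbol is on a fixed list: 3 transporters of glucose and lactate, 15 glycolytic enzymes, 3 regulators of glycolytic flux, 2 HIF alpha subunits and 15 other targets of the hypoxia-inducible factors (HIF). All 38 were found, among 22137 genes in one table and 24778 in the other. The first table compares a high-fat diet (HFD, 5 libraries) with a low-fat diet (LFD, 5 libraries). In the second all hosts ate the high-fat diet, and 4 libraries carry the label shYap, for a hairpin against Yap, beside 4 controls labelled shCon. Age and sex of the mice are not given in the labels, which also leave out the cells that carry the hairpin. Whether each library is a different mouse is not stated, so the p-values rest on the spread among the libraries, which may be technical. RNA came from whole tumour tissue, in which fewer cells of a type and less RNA per cell cannot be told apart.

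Glycolysis splits glucose into pyruvate, and lactate dehydrogenase turns pyruvate into lactate when it is not burnt in mitochondria. When oxygen is short, the HIF alpha proteins are no longer hydroxylated and destroyed. They then pair with HIF beta, bind a short DNA core (ACGTG or GCGTG) and raise transcription of glucose transporters, glycolytic enzymes, angiogenic peptides and genes of mitochondrial clearance. Tumours often run glycolysis even with oxygen present, and normal liver uses other isozymes for several steps. The stability of the HIF alpha proteins was not measured here, since RNA reports only their transcripts.

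RefSeq (build GRCm38.p6) gave promoter windows, 250 bases before to 50 after a gene's start, for 34 of the 38 genes. The core ACGTG stood on either strand in a window of 24 of the 34, or 70.6%, against 21.8% of the 27025 genes with a window and 28.2% of the 11507 that had a mean of at least 10 counts in the HFD and LFD table. The other core, GCGTG, was found for 22 of the 34, or 64.7%, against 35.2% of all genes and 52.9% of those expressed genes. CACGTG, which holds ACGTG on both strands, was found for 4 of the 34, or 11.8%, near the 8.09% of all genes and 11.1% of the expressed genes. Since the list was drawn from known HIF targets, these shares describe the list. The 6 windows below are printed for members on which the results turn, of which 5 hold the core and the window of Eno2, the glycolytic gene with the largest rise in HFD, does not. Capitals mark ACGTG, read as CACGT on the opposite strand.
Ldha (chr7:46845554-46845853, plus strand): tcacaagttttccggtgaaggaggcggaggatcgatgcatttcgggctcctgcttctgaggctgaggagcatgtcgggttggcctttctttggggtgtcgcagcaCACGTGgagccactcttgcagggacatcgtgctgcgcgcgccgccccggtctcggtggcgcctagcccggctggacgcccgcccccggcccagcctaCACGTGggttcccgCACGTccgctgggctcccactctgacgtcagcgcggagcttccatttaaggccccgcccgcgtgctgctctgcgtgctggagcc
Pgk1 (chrX:106186850-106187149, plus strand): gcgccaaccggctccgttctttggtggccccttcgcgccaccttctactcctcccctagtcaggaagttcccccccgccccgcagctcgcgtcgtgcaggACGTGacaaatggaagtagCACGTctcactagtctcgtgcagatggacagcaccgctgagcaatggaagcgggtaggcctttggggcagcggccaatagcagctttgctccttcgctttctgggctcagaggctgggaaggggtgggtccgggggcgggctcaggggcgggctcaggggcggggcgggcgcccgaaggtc
P4ha2 (chr11:54100674-54100973, plus strand): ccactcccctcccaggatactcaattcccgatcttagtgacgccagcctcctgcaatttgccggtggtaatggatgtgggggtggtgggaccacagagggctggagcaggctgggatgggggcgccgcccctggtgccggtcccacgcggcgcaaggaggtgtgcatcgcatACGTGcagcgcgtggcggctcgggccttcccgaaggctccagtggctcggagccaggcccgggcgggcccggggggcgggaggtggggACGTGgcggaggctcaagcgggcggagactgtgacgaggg
Ankrd37 (chr8:45999801-46000100, minus strand): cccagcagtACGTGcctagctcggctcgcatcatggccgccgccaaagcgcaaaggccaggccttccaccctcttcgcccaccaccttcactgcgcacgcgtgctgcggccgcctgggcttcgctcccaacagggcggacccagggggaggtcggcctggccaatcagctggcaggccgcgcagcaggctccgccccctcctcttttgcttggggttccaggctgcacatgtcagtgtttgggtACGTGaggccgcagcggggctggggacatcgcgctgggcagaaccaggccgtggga
Bnip3 (chr7:138909457-138909756, minus strand): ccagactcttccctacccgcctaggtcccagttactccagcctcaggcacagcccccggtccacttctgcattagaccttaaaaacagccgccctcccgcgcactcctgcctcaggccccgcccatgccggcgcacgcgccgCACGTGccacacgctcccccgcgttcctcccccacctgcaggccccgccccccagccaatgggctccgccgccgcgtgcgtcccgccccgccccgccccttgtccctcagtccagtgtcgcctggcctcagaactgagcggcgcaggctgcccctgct
Eno2 (chr6:124769624-124769923, minus strand): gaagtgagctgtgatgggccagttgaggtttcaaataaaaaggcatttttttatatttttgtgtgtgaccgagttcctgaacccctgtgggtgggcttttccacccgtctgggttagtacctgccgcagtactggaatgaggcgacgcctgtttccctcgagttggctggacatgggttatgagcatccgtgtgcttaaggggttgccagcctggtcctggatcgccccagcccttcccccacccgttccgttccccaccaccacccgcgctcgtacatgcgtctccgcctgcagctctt
Of the 24 members with ACGTG, 10 were higher and 2 lower in HFD by the test described next, and of the 10 members with a window but no ACGTG, 4 were higher and 0 lower. Over all genes tested 19.4% were higher and 21.6% lower, and the share of members called higher was about the same with and without the core. No window was found for Epas1, Ndrg1, Bnip3l and Slc2a3.

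Levels are CPM, estimated counts per 1000000 of a library total that was scaled by trimmed means within each table, so levels of the tables are not compared with each other. Scaling factors were 1.09 to 1.11 in HFD and 0.684 to 1.06 in LFD, and a smaller factor gives a higher CPM. The smallest were those of LFD replicates 5 (0.684) and 1 (0.821), so where these libraries stand against HFD depends in part on the scaling. In the other table factors were 0.905 to 1.05. Differences are log2 fold changes with their standard errors (SE), also where they stand in parentheses after levels, and a gene was called higher or lower at a Benjamini-Hochberg adjusted p under 0.05 over all genes of its table in edgeR's quasi-likelihood test. Libraries held 17766207 to 18474191 estimated counts in the HFD and LFD table and 17207214 to 21309950 in the other. RNA of cell type markers differed with diet. Over all genes tested 19.4% were higher and 21.6% lower in HFD. The 12 hepatocyte markers were all lower in HFD and took 0.0389% to 0.35% of counts in HFD and 1.07% to 6.39% in LFD, with the highest shares in LFD replicates 5 and 1. T cell markers were lower in 7 of 7 (9.32 to 37.1 CPM in all in HFD and 31.2 to 93.7 in LFD), and those of red blood cells in 5 of 5. Fibroblast markers were higher in 4 of 8 and took 0.701% to 0.942% of counts in HFD and 0.201% to 0.539% in LFD. No marker of these 4 lists was at 0 in any library of this table. Macrophage and endothelial markers were called in 0 of 7 and 0 of 8, and neutrophil markers were lower in 2 of 6. Epithelial markers, which the carcinoma cells could carry, were lower in 1 of 5 tested and summed to 188 to 359 CPM in HFD and 54.3 to 543 CPM in LFD. Xist, the X inactivation transcript of females, was at 0.0505 to 0.293 CPM in HFD and 72.9 to 135 CPM in LFD, so the sex of the RNA and diet cannot be told apart. Between shYap and shCon no gene at all was called (0 of 16571), so calls say nothing about cell content there. The 12 hepatocyte markers took 1.25% to 5.32% of counts in shYap and 1.09% to 3.42% in shCon. At an unadjusted p under 0.05 were 0 of 12 hepatocyte, 7 of 7 T cell, 3 of 8 fibroblast, 3 of 7 macrophage, 2 of 8 endothelial and 1 of 6 neutrophil markers, against 10.9% of all genes. T cell markers had a median log2 difference of -1.82, and their sum did not overlap (12.9 to 22.3 CPM in shYap and 30 to 83.4 in shCon). Yap1, the gene the hairpin is named for, was not lower in the labelled libraries at the RNA level and had 70.5 to 81.4 CPM in shYap and 73.8 to 82.4 in shCon (-0.04 ± 0.11 log2, edgeR adjusted p = 0.937). The group is therefore called by its label.

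**Figure D1:**
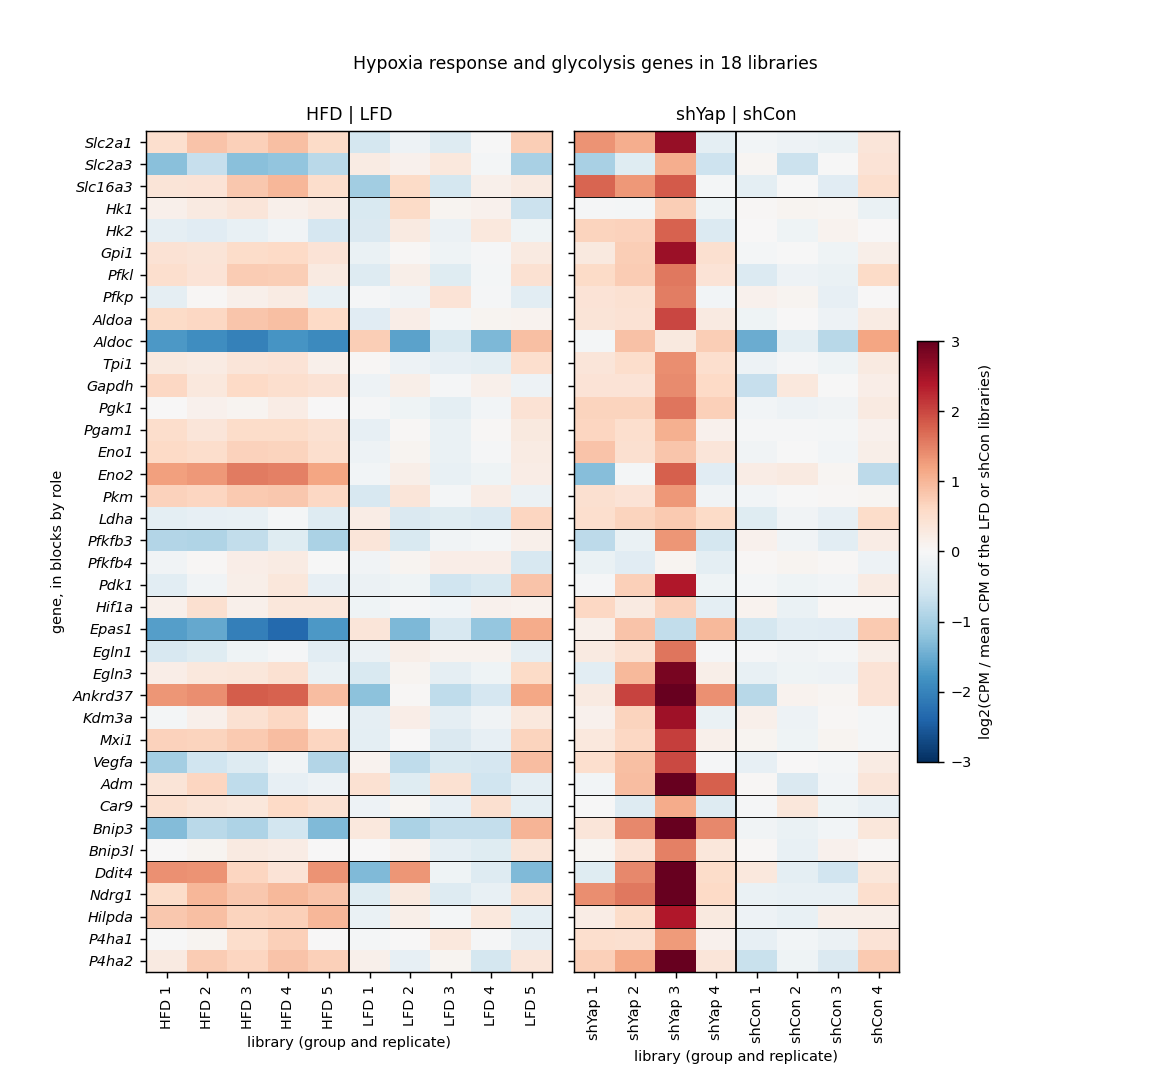
Level of each of the 38 genes (rows, in blocks by role) in each of the 18 libraries (columns), as log2 of CPM over the mean of the LFD or shCon libraries; colours stop at 3 in each direction. In the HFD columns most glycolytic enzymes are red and Slc2a3, Aldoc, Pfkfb3 and Epas1 are blue, and in the other table the column of shYap replicate 3 holds the highest level for 35 of the 38 genes.

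In HFD tumours, 15 of the 38 genes were higher and 4 lower than in LFD tumours, and 19 were not called. Over all 16340 genes tested 41.1% were called, 19.4% higher and 21.6% lower, so the share of members that were called lies near that of all genes and the share called higher lies above that of all genes. The median log2 fold change was 0.30 over the 38 genes, 0.48 over the 15 glycolytic enzymes and 0.30 over the 17 HIF subunits and other targets, against -0.00 over all genes. Among glycolytic enzymes 8 of 15 were higher and 1 lower, and among the 17 others 6 were higher and 1 lower. The largest rises were in Ankrd37 and Eno2 and the largest falls in Aldoc and Epas1. Values did not overlap between the groups in 12 members, 10 higher and 2 lower in HFD, against 30.6% of all genes (15.8% higher and 14.8% lower). The share of members without overlap thus lies near that of all genes. Under relative log expression (RLE) scaling the count of members without overlap was 9 and under upper-quartile scaling 15, with no share of all genes given here. With unscaled library totals this count was 19, against 34.6% of all genes. Without LFD replicate 5 it was 20, against 37.5% of all genes, and 18 members were higher and 5 lower, against 21.6% and 22% of all genes. As a share of all counts, the 15 glycolytic enzymes took 0.493% to 0.568% in HFD and 0.257% to 0.393% in LFD. Gene coordinates below are those of GENCODE M21 on GRCm38. Libraries are listed in the order of replicates 1 to 5.

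**Figure D2:**
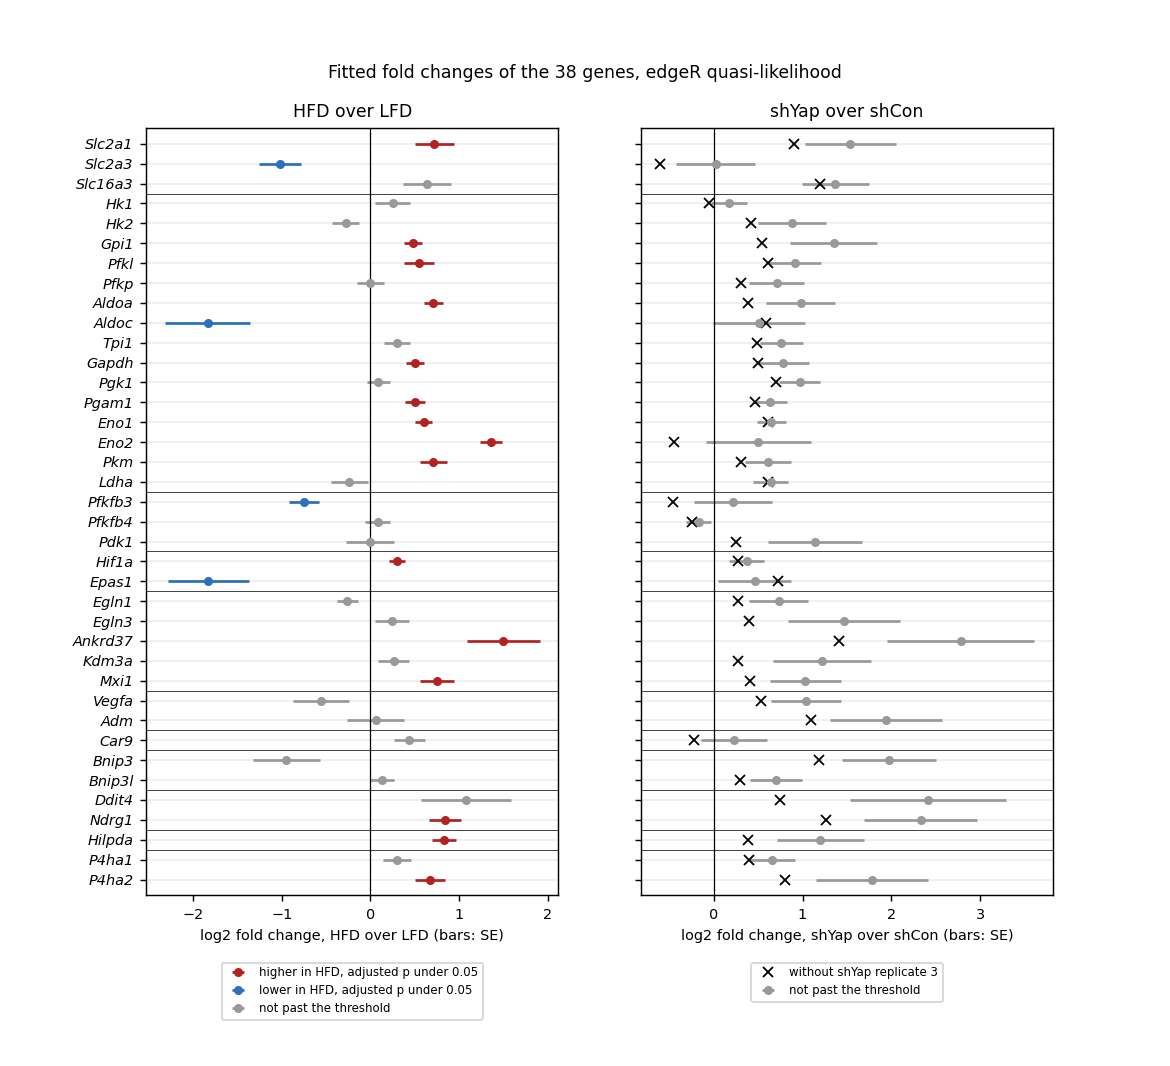
Fitted log2 fold changes (horizontal axis) with standard errors for the 38 genes (rows), HFD over LFD at left and shYap over shCon at right; red and blue mark adjusted p under 0.05 and crosses give the fit without shYap replicate 3. At left 15 genes are red and 4 blue; at right no gene is coloured, 37 of 38 dots lie above 0, and 32 crosses do.

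Glucose enters tumour cells mainly through Slc2a1 (GLUT1), and the high-affinity carrier Slc2a3 (GLUT3) is known from neurons and leukocytes. Slc2a1 (chr4:119108711-119137983) had 74.5, 93.7, 86, 96.9 and 77.2 CPM in HFD, against 35.9, 46.7, 40.0, 51.4 and 86.7 CPM in LFD. The LFD libraries lay below all HFD libraries except replicate 5, and the gene was 1.64-fold higher in HFD (0.72 ± 0.22 (SE), edgeR adjusted p = 0.0242). Slc2a3 had 3.64, 5.4, 3.68, 3.82 and 4.99 CPM in HFD, against 10.4, 9.59, 10.9, 8.33 and 4.48 CPM in LFD. Here LFD replicate 5 lay inside the HFD range and the other 4 LFD libraries above it, and the gene fell (-1.02 ± 0.24 (SE), edgeR adjusted p = 0.0072). Counted per kilobase of exon, Slc2a3 made up 1.87% to 3.03% of the pair in HFD and 2.44% to 12.3% in LFD. Slc16a3 (MCT4), the carrier that lets lactate out, had 61.6 to 92.8 CPM in HFD and 22.9 to 69.8 CPM in LFD and was not called (0.64 ± 0.27 (SE), edgeR adjusted p = 0.0842). Without LFD replicate 2 it was higher, at 0.83 (edgeR adjusted p = 0.0285).

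The early steps of glycolysis trap glucose and split it into trioses. Gpi1, which turns glucose-6-phosphate into fructose-6-phosphate, had 330.2, 321, 359.6, 373 and 323 CPM in HFD, against 215, 251, 225, 241 and 293 CPM in LFD. Every HFD library lay above every LFD library (0.48 ± 0.10 (SE), edgeR adjusted p = 0.00347). Pfkl is the liver-type subunit of phosphofructokinase, the committed step of the pathway. Its levels were 80.3, 75.3, 96.7, 95.2 and 68.7 CPM in HFD, against 43.5, 64.8, 44.5, 54.6 and 77.7 CPM in LFD, a rise with overlap (0.55 ± 0.17 (SE), edgeR adjusted p = 0.0277). The aldolases that cut the hexose moved in opposite directions. Aldoa, the muscle-type enzyme found in most tumours, had 507, 516, 601, 630.1 and 514 CPM in HFD, against 265, 385, 323, 355 and 361 CPM in LFD, without overlap (0.71 ± 0.11 (SE), edgeR adjusted p = 0.00129). Its deposited row (chr7:126795234-126809108) spans a pair of GENCODE gene models. Aldoc, known from brain, had 2.24, 2.02, 1.81, 2.16 and 1.96 CPM in HFD, against 12.4, 2.44, 5.39, 2.88 and 13.8 CPM in LFD, again without overlap (-1.84 ± 0.48 (SE), edgeR adjusted p = 0.0119). LFD replicates 5 and 1 were far above the others, and these libraries also had the largest hepatocyte shares. In limma voom the fall in Aldoc did not pass (-1.40, adjusted p = 0.0597).

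The later steps harvest energy from the trioses. Gapdh oxidises them and had 570.2, 462, 564, 528 and 499 CPM in HFD, against 331, 416, 361, 409.8 and 336 CPM in LFD. Its HFD libraries all lay above the LFD libraries (0.50 ± 0.10 (SE), edgeR adjusted p = 0.00293). Pgam1, a phosphoglycerate mutase, had 338, 299.5, 340.4, 344 and 322 CPM in HFD, against 197, 239, 202, 239.7 and 287 CPM in LFD. These groups did not overlap either (0.50 ± 0.11 (SE), edgeR adjusted p = 0.00482). Eno1, the ubiquitous enolase, had 591, 559, 624, 615 and 552 CPM in HFD, against 347, 410.1, 341, 381 and 464 CPM in LFD, a rise without overlap (0.60 ± 0.10 (SE), edgeR adjusted p = 0.00133). Eno2 (chr6:124760053-124769673), the enolase best known from neurons, was the member with the smallest p. It had 27.7, 29.1, 34.7, 33.5 and 26.7 CPM in HFD, against 11.1, 13.4, 10.1, 10.8 and 13.8 CPM in LFD. The lowest HFD library lay well above the highest LFD library, and the gene was 2.56-fold higher (1.36 ± 0.12 (SE), edgeR adjusted p = 7.99e-05). Eno2 made up 5.08% to 5.98% of both enolases per kilobase in HFD and 3.14% to 3.61% in LFD. The Eno1 row was used here without its named copy, which held 37.6% of the counts of gene and copy. With the copy added to Eno1 the share of Eno2 would be lower. Pkm, pyruvate kinase of muscle and tumours and the most abundant member per kilobase in HFD (244 ± 13.9 CPM per kilobase, SD, n = 5), had 1211, 1158, 1276, 1301 and 1144 CPM in HFD, against 535, 954, 713, 868 and 658 CPM in LFD. The groups were apart (0.71 ± 0.15 (SE), edgeR adjusted p = 0.00413).

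Ldha (chr7:46841475-46855627), the subunit of lactate dehydrogenase that favours lactate, had 422, 439, 443, 498 and 399 CPM in HFD, against 609, 384, 405, 392 and 812 CPM in LFD. LFD replicates 5 and 1 were above every HFD library, the other 3 LFD libraries were lower than most HFD libraries, and the gene was not called (-0.24 ± 0.21 (SE), edgeR adjusted p = 0.377). Without LFD replicate 5 its difference was -0.01 (edgeR adjusted p = 0.975). The 5 other enzymes were not called. Pgk1 had 113 to 132 CPM in HFD and 92 to 153 CPM in LFD, and Tpi1 had 354 to 423 CPM in HFD and 261 to 449 CPM in LFD. Of the hexokinases, Hk1 had 98.1 to 114 CPM in HFD and 56 to 130.3 CPM in LFD and Hk2 28.6 to 37.4 CPM in HFD and 29.9 to 50.4 CPM in LFD. Pfkp, the platelet-type phosphofructokinase subunit, had 32.9 to 46.5 CPM in HFD and 31.8 to 52.3 CPM in LFD. Without LFD replicate 5, Tpi1 was higher at 0.47 (edgeR adjusted p = 0.00261) and Pgk1 at 0.25 (0.0228). Pgk1 lies on the X chromosome (chrX:106187100-106203699). Reads of Pgk1, Eno1 and Pgam1 could also be split with near-identical copies: rows named for such copies held 47.1%, 37.6% and 19.8% of the summed counts of gene and copies in this table. With the copies added, Pgk1 was at 0.10 (edgeR adjusted p = 0.611), Eno1 at 0.63 (0.00209) and Pgam1 at 0.51 (0.00701).

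**Figure D3:**
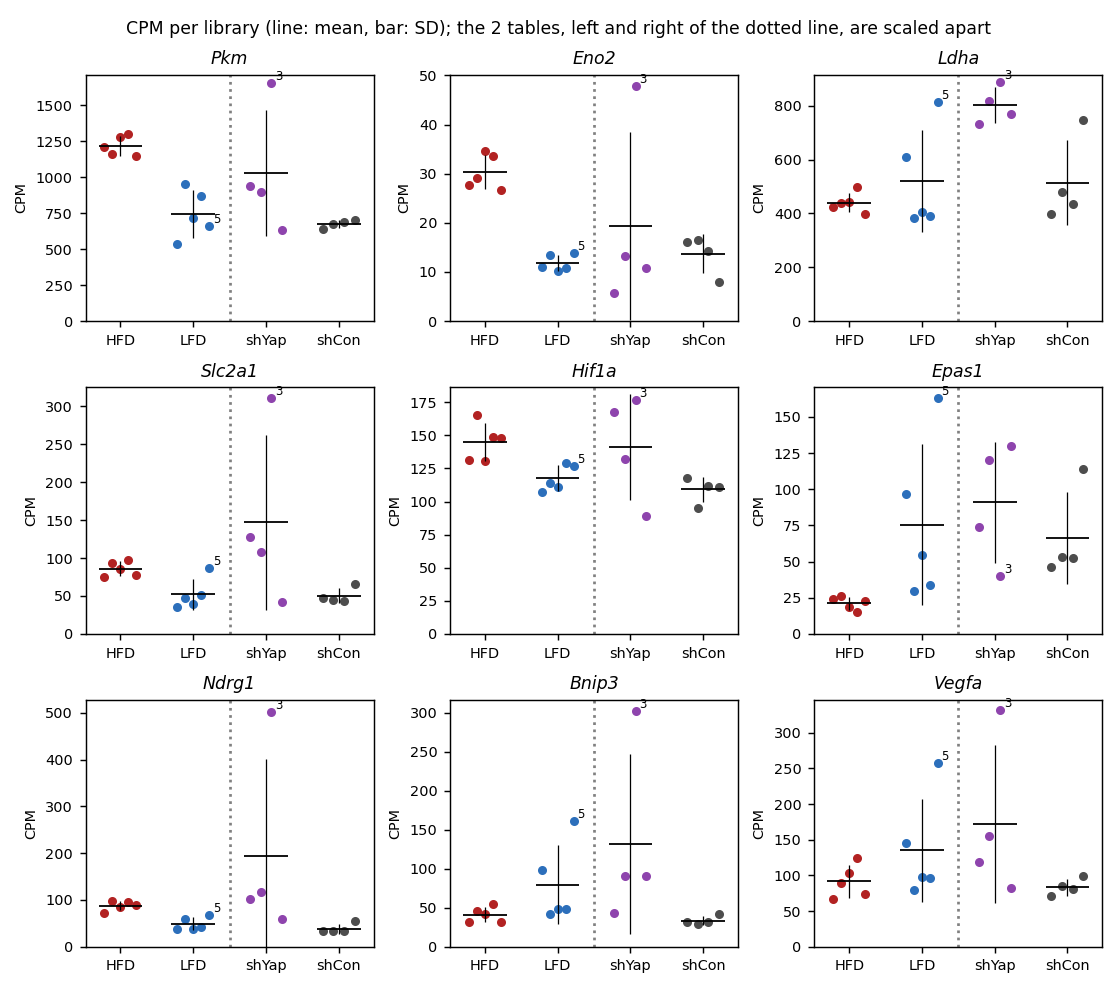
CPM (vertical axis, from 0) of 9 genes in each library, with the group mean (line) and SD (bar), groups along the horizontal axis; the tables left and right of the dotted line are scaled apart, and labels 3 and 5 mark shYap replicate 3 and LFD replicate 5. Pkm, Eno2, Hif1a and Ndrg1 are higher in every HFD library than in every LFD library, Epas1 is lower in each, and shYap replicate 3 is the highest library of its table in 8 of the 9 panels, Epas1 being the exception.

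Regulators set how fast the pathway runs and where pyruvate goes. Pfkfb3, which makes the sugar phosphate that switches phosphofructokinase on, had 16.1, 15.9, 17.8, 23.2 and 15.5 CPM in HFD, against 38.2, 21.6, 27.5, 28.6 and 33 CPM in LFD. Its HFD libraries were below the LFD libraries except that HFD replicate 4 exceeded LFD replicate 2, and the gene fell (-0.75 ± 0.17 (SE), edgeR adjusted p = 0.00566). Its relative Pfkfb4 was not called, at 17.5 to 22.3 CPM in HFD and 13.5 to 21.6 CPM in LFD. Pdk1, the kinase that shuts pyruvate out of mitochondria, had 48.2, 55.9, 67.4, 75.5 and 50.5 CPM in HFD, against 53.1, 54.6, 40.0, 43.9 and 109 CPM in LFD. LFD replicate 5 was the highest library and the other 4 LFD libraries lay inside or below the HFD range (-0.01 ± 0.27 (SE), edgeR adjusted p = 0.974).

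The HIF alpha subunits went apart. Hif1a (chr12:73901375-73947530) had 131, 165, 130.4, 149 and 148 CPM in HFD, against 107, 114, 111, 129 and 127 CPM in LFD. The lowest HFD library was just above the highest LFD library, and the rise was small (0.30 ± 0.09 (SE), edgeR adjusted p = 0.0216); without HFD replicate 2 or LFD replicate 1 its edgeR adjusted p was 0.0511 and 0.0503. Epas1 (chr17:86753700-86833410), which encodes HIF-2 alpha and is known from endothelial cells and hepatocytes, had 24, 26, 18.3, 14.9 and 23 CPM in HFD, against 97, 29.7, 54.3, 34.1 and 163 CPM in LFD. Every HFD library was below every LFD library, and the gene was 3.56-fold lower (-1.83 ± 0.46 (SE), edgeR adjusted p = 0.0109). Epas1 was 9.56% to 16.2% of the sum of both subunits per kilobase in HFD and 21.6% to 57.5% in LFD. The LFD libraries stood in the same order by Epas1 as by hepatocyte share, as they did by Aldoc, Ldha and Vegfa (4 of 38 members, against 12% of all genes). Hk1 and Egln1 stood in the opposite order there, as did 5.54% of all genes. By Epas1 the shYap libraries (7.65% of all genes) and the shCon libraries (10.9%) also stood in the order of hepatocyte share, and the HFD libraries did not. In shCon 11 members did so, and in shYap Epas1 was the one member that did, while 8 stood in the opposite order (7.94% of all genes). Endothelial markers were called in 0 of 8 and summed to 132 to 162 CPM in HFD and 101 to 214 CPM in LFD.

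Some HIF targets act back on the response, such as Egln1 and Egln3, prolyl hydroxylases that mark HIF alpha for destruction; set beside them were the histone demethylase Kdm3a, the MYC antagonist Mxi1 and the ankyrin repeat protein Ankrd37. Ankrd37 had 4.83, 5.05, 6.75, 6.59 and 3.62 CPM in HFD, against 0.824, 1.97, 1.14, 1.36 and 4.31 CPM in LFD. It was 2.83-fold higher in HFD (1.50 ± 0.41 (SE), edgeR adjusted p = 0.0145), and LFD replicate 5 was the only LFD library inside the HFD range. Mxi1 had 65.6, 65.2, 70.4, 76.8 and 63.9 CPM in HFD, against 33.2, 41, 30.2, 34.6 and 64.6 CPM in LFD. LFD replicate 5 again fell inside the HFD range, and the other 4 lay well below it (0.75 ± 0.19 (SE), edgeR adjusted p = 0.0107). Egln1 had 59.8 to 80.7 CPM in HFD and 68.4 to 94.4 CPM in LFD, Egln3 37 to 58.2 CPM in HFD and 30.6 to 62.4 CPM in LFD and Kdm3a 42.3 to 68.2 CPM in HFD and 36.8 to 55.4 CPM in LFD, and none was called. Without LFD replicate 5, Egln3 was higher at 0.44 (edgeR adjusted p = 0.0293) and Egln1 lower at -0.30 (0.0415).

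Ndrg1, a growth-restraining protein induced by hypoxia, had 72.1, 98, 85.8, 95.8 and 89 CPM in HFD, against 38.3, 60.0, 37.5, 42 and 68.2 CPM in LFD. No LFD library reached an HFD library (0.84 ± 0.18 (SE), edgeR adjusted p = 0.00472). Hilpda, which coats lipid droplets and holds back lipolysis, had 15.9, 17.1, 14.5, 15 and 18.1 CPM in HFD, against 7.9, 10.2, 8.66, 11.3 and 7.4 CPM in LFD. It too was higher without overlap (0.83 ± 0.13 (SE), edgeR adjusted p = 0.00124). P4ha2, a collagen prolyl hydroxylase, had 15.6, 21.7, 20.1, 23.4 and 21.1 CPM in HFD, against 14.2, 10.9, 13.7, 8.9 and 16.5 CPM in LFD, and HFD replicate 1 lay below LFD replicate 5 (0.67 ± 0.17 (SE), edgeR adjusted p = 0.0116). P4ha1, the other collagen enzyme, was not called, at 87.6 to 144 CPM in HFD and 72.3 to 109.6 CPM in LFD. Of the 8 fibroblast markers 4 were higher in HFD (Dcn, Col1a2, Col3a1 and Pdgfrb), and Lum, Col1a1, Pdgfra and Postn were not called, Postn with a negative difference (-0.62, edgeR adjusted p = 0.0879). The part of fibroblast content in the values of P4ha2 was not tested.

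The next HIF targets were not called. Vegfa, the main angiogenic factor, had 67.3, 89.7, 103, 125 and 73.4 CPM in HFD, against 146, 80.2, 97.9, 96 and 257 CPM in LFD. LFD replicates 5 and 1 were the highest libraries and the rest of the groups overlapped (-0.56 ± 0.32 (SE), edgeR adjusted p = 0.188). Bnip3, a receptor for clearance of mitochondria, had 32.1, 45.5, 42.2, 54.4 and 31.7 CPM in HFD, against 98.7, 41.4, 48.7, 48.7 and 161 CPM in LFD. The same LFD libraries were the highest (-0.95 ± 0.38 (SE), edgeR adjusted p = 0.0715). In DESeq2 Bnip3 was lower at -0.99 (adjusted p = 0.0363), and in edgeR without LFD replicate 2 at -1.11 (adjusted p = 0.0356). Car9, the carbonic anhydrase that acidifies the outside of hypoxic cells, was low in every library, with 2.34, 2.22, 2.12, 2.57 and 2.3 CPM in HFD, against 1.51, 1.76, 1.42, 2.36 and 1.38 CPM in LFD (0.44 ± 0.18 (SE), edgeR adjusted p = 0.0709). One LFD library, replicate 4, lay inside the HFD range, and without it Car9 was higher at 0.60 (edgeR adjusted p = 0.0148). Ddit4, which restrains mTORC1, had 80.6 to 159 CPM in HFD and 24.2 to 154 CPM in LFD, with LFD replicate 2 at 154 CPM. It was not called (1.08 ± 0.51 (SE), edgeR adjusted p = 0.115) but was higher without that library (1.77, edgeR adjusted p = 0.0031) and in limma voom (1.35, adjusted p = 0.0453). Bnip3l had 89.9 to 109 CPM in HFD and 69.2 to 118 CPM in LFD and the vasodilator peptide Adm 0.705 to 1.87 CPM in HFD and 0.785 to 1.65 CPM in LFD.

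Genes around the members were counted from lists with the same test. Of 30 further HIF targets 6 were higher and 3 lower in HFD (median 0.19, against -0.00 over all genes). With 19.4% of all genes higher and 41.1% called, the share of these targets that was higher was that of all genes and the share called was below it. The smallest p, all of genes that were higher, were those of Plod1 (0.61 ± 0.10 SE, edgeR adjusted p = 0.00172), Gys1 (0.77 ± 0.14, 0.0021), Stc2 (1.14 ± 0.22, 0.0032) and Angptl4 (1.51 ± 0.30, 0.00359), which act in collagen modification, glycogen synthesis, calcium balance and lipase inhibition. In the HIF machinery, of 14 genes tested Hif1an was higher (0.27 ± 0.06, edgeR adjusted p = 0.00478) and Arnt2 lower (-1.29 ± 0.42, 0.0315). All 10 liver isozymes of glucose metabolism were lower (median -3.93), with the ketohexokinase gene Khk at -2.99 ± 0.43 (edgeR adjusted p = 0.000952), beside a fall of all 12 hepatocyte markers. Of 15 genes of pyruvate use 3 were higher and 7 lower. The 4 with the smallest p were Pdp1, a phosphatase that opposes the pyruvate dehydrogenase kinases (1.08 ± 0.15, edgeR adjusted p = 0.000758), Ldhb, the other lactate dehydrogenase subunit (-2.27 ± 0.34, 0.000997), Slc16a1, the lactate and pyruvate carrier MCT1 (0.45 ± 0.08, 0.00178), and Mpc2, a subunit of the mitochondrial pyruvate carrier (-1.52 ± 0.27, 0.00221). Pdp2, the other such phosphatase, and the kinase Pdk2 were lower (-1.28 ± 0.29 and -2.01 ± 0.44, edgeR adjusted p = 0.00656 and 0.00612); these were chosen after their values were seen. In the pentose phosphate pathway 1 of 7 genes tested was higher and 3 were lower, among them Tkt (-0.67 ± 0.06, edgeR adjusted p = 7.77e-05).

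The diet calls changed with a term for hepatocyte content. With the mean hepatocyte marker level as a covariate, 2 members were called, Eno2 higher (1.22, edgeR adjusted p = 0.0276) and Egln1 lower (-0.87, 0.0122), and 5.54% of all genes; the covariate had a correlation of -0.893 with the diet label over the 10 libraries, so hepatocyte content and diet cannot be told apart. With HFD replicates 1 and 2 and replicates 3 and 4 each summed, 11 members were higher and 2 lower (Slc2a1, Pfkl, Ankrd37, Mxi1, Aldoc and Epas1 no longer passed), against 25% of all genes called. Slc2a1 also missed the threshold without HFD replicate 2 or 4 or LFD replicate 1 or 3 (edgeR adjusted p up to 0.0605), and Pfkl without HFD replicate 3 or 4 or LFD replicate 1, 3 or 4 (up to 0.0666).

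**Figure D4:**
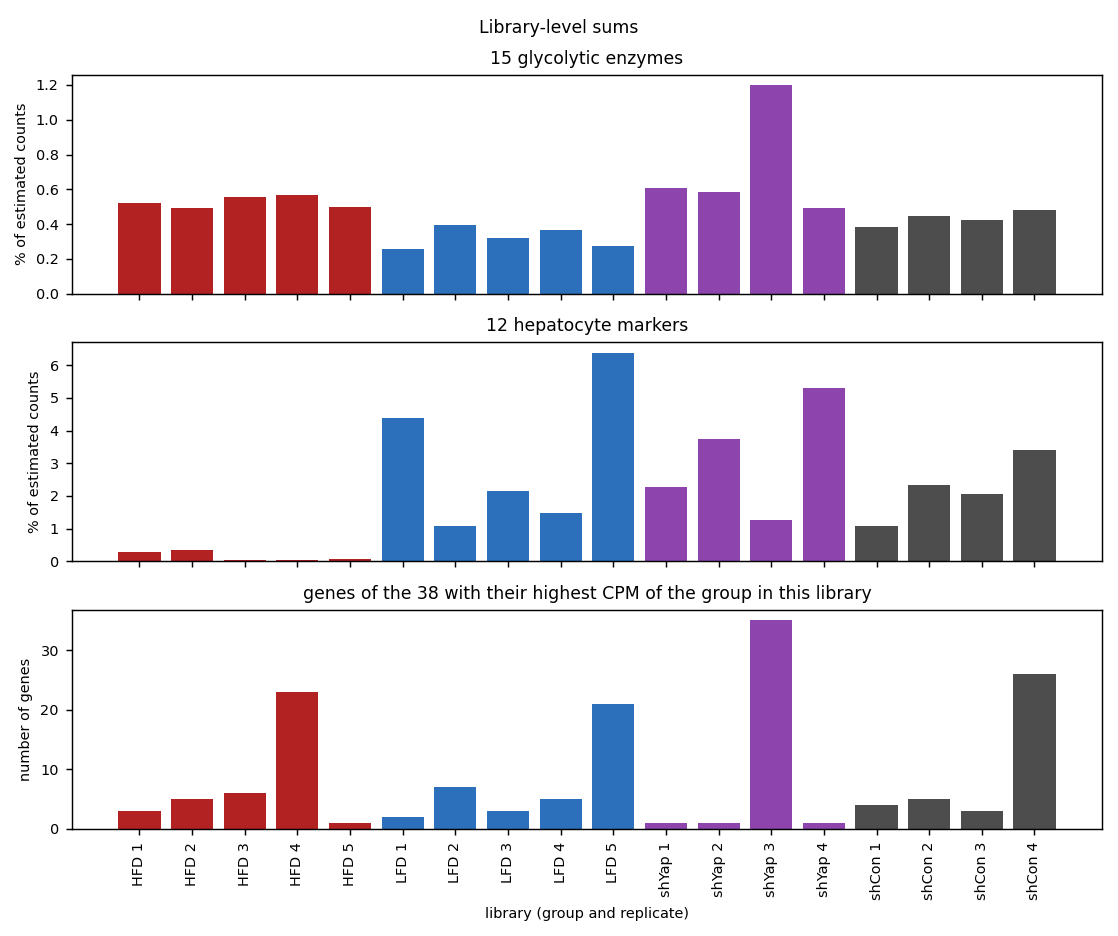
Bars give, for each of the 18 libraries, the share of estimated counts on the 15 glycolytic enzymes (top) and on the 12 hepatocyte markers (middle), and the number of the 38 genes whose highest CPM of the group is in that library (bottom). Within the HFD and LFD table the hepatocyte share is highest in LFD replicate 5 at 6.39%; within the other table the glycolytic share is highest in shYap replicate 3 at 1.2%, where 35 of 38 genes peak.

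Libraries of 1 group differed in these genes as well. Within HFD, replicate 4 was highest in 23 of the 38 members, against 21.6% of all genes tested. Within LFD, replicate 5, the library with the smallest scaling factor (0.684), was highest in 21, against 32.6% of all genes. In shYap, replicate 3 was highest in 35, against 36.6%, and in shCon, replicate 4 in 26, against 34.9%. HFD replicate 4 had a small hepatocyte share (0.0471%). The smallest of that group was in HFD replicate 3 (0.0389%), which was highest in 6 members, against 19.3% of all genes. LFD replicate 5 had the largest share of its group (6.39%). Among the others, shYap replicate 3 had the smallest of its group (1.25%) and shCon replicate 4 the largest of its group (3.42%).

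In the libraries labelled shYap, no member was called against shCon, and neither was any other gene (0 of 16571 in edgeR's quasi-likelihood test, or 0%). At an unadjusted p under 0.05 were 26 of the 38 members, against 10.9% of all genes. DESeq2 called 8 members higher, against 0.667% of all genes called higher (405 genes, 2.2%, in either direction). These were Slc2a1, Slc16a3, Pgk1, Eno1, Ankrd37, Adm, Bnip3 and Ndrg1. Fitted differences were positive in 37 of 38 members, against 8929 of 16571 genes tested, with a median of 0.83, against 0.03 over all genes. The median was 0.71 in the 15 glycolytic enzymes and 1.20 in the 17 HIF subunits and other targets. Groups did not overlap in 10 members, against 6.57% of all genes, and in each shYap was higher (2.61% of all genes). Without shYap replicate 4 this count was 21, against 14.3% of all genes, without shCon replicate 4 it was 18, against 16.6%, and with unscaled library totals it was 5, against 6.49%. With all libraries these were Gpi1, Aldoa, Tpi1, Gapdh, Pgk1, Eno1, Mxi1, Bnip3, Ndrg1 and Hilpda.

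One library stood apart. The library labelled shYap replicate 3 had the highest level of the table in 35 of the 38 genes, against 27.6% of all genes. It was over 2-fold above each of the other 7 libraries in 21 members and in 13 of the 30 further HIF targets, against 2.04% of all genes. No other library of either table was so for any member. In its own table LFD replicate 5 was so for 3 of the further HIF targets, with the share of all genes not given here. For shYap replicate 3, the ratio of its level to the mean of the other shYap libraries was taken. It had a median of 4.01 over the 17 HIF subunits and other targets, 1.94 over the 15 glycolytic enzymes and 0.999 over all genes. Ddit4 had a ratio of 9.86, Ankrd37 of 7.53, Egln3 of 5.49, Ndrg1 of 5.46 and P4ha2 of 5.02. Epas1 and Aldoc were lower in shYap replicate 3 than in the mean of the other shYap libraries (0.371 and 0.826). Without this library the members had a median of 0.45 (0.49 for glycolytic enzymes, 0.41 for HIF subunits and other targets), against 0.03 over all genes. Of the 38 members 32 were positive, against 9095 of 16889 genes tested. Then 20 were at an unadjusted p under 0.05, against 14.3% of all genes, and 11 did not overlap, against 12.4% of all genes; edgeR called none. The hepatocyte share of this library was the lowest in shYap, as given above, and its part in these values was not tested.

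**Figure D5:**
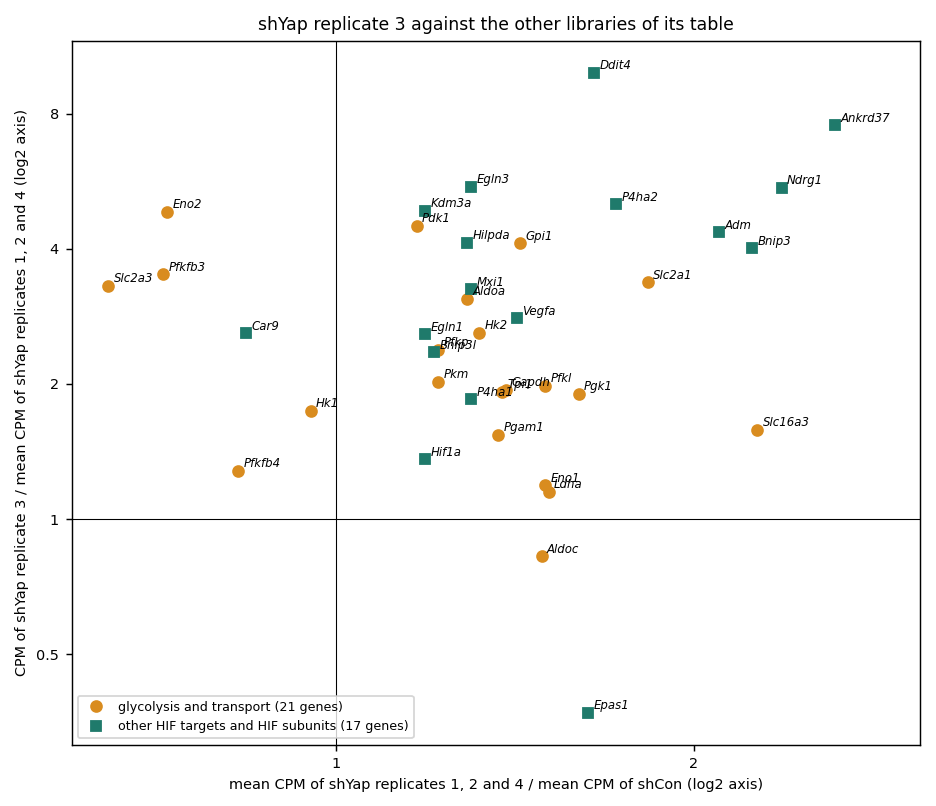
Each point is 1 of the 38 genes, with the mean CPM of shYap replicates 1, 2 and 4 over the mean of the 4 shCon libraries on the horizontal axis and shYap replicate 3 over that mean of the other shYap libraries on the vertical axis, both on log2 axes. Ddit4 (9.86) and Ankrd37 (7.53) are highest on the vertical axis, Aldoc and Epas1 alone lie below 1 there, and 32 of the 38 genes lie to the right of 1.

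Values of shYap and shCon libraries follow in the order of replicates 1 to 4, by role. Slc2a1 had 128, 108, 311 and 41.4 CPM in shYap, against 47.8, 45.1, 43.8 and 65.4 CPM in shCon. Replicate 3 stood far above, and replicate 4 was below all 4 shCon libraries (1.54 ± 0.51 (SE), edgeR adjusted p = 0.324). DESeq2 gave 1.55 (adjusted p = 0.0451). Slc2a3 had 1.88, 2.88, 7.88 and 2.39 CPM in shYap, against 3.86, 2.38, 3.66 and 4.89 CPM in shCon, and without shYap replicate 3 its difference was -0.61 (edgeR adjusted p = 0.391). Slc16a3 had 48.1 to 179 CPM in shYap and 39.7 to 70.9 CPM in shCon (1.37 ± 0.38 (SE), edgeR adjusted p = 0.249), and 1.38 in DESeq2 (adjusted p = 0.0206).

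Several glycolytic enzymes were apart between the groups. Gpi1 had 411, 565, 1986 and 473 CPM in shYap, against 323, 336, 307 and 384 CPM in shCon, with every shYap library above shCon (1.35 ± 0.49 (SE), edgeR adjusted p = 0.362). Eno1 had 1095, 836, 1075 and 774 CPM in shYap, against 561, 598, 568 and 684 CPM in shCon, and here replicate 1 was highest (0.65 ± 0.16 (SE), edgeR adjusted p = 0.184; DESeq2 0.65, adjusted p = 0.0166). Pgk1 had 150.2 to 289.9 CPM in shYap and 86.4 to 115 CPM in shCon, also without overlap (0.97 ± 0.23 (SE), edgeR adjusted p = 0.178; DESeq2 0.98, adjusted p = 0.0137). Ldha had 732, 818, 888 and 770.4 CPM in shYap, against 398, 478, 433 and 747 CPM in shCon. The shYap libraries were close to each other, with replicate 3 little above the rest, and shCon replicate 4 alone reached them (0.64 ± 0.20 (SE), edgeR adjusted p = 0.301); without shCon replicate 4 Ldha was higher at 0.88 (edgeR adjusted p = 0.0436, with 0.558% of all genes called). Gapdh had 946, 935, 1909 and 1079 CPM in shYap, against 436, 885, 705 and 810.1 CPM in shCon (0.78 ± 0.29 (SE), edgeR adjusted p = 0.368). Aldoa had 599, 616, 1824 and 553 CPM in shYap, against 414, 458, 409 and 543 CPM in shCon (0.98 ± 0.39 (SE), edgeR adjusted p = 0.408). In these enzymes except Ldha every shYap library was above every shCon library, and Tpi1 was likewise (439.7 to 903 CPM in shYap and 305 to 414 CPM in shCon).

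Other enzymes overlapped. Pgam1 had 479.9, 436, 640.3 and 334 CPM in shYap, against 298, 296, 291 and 335 CPM in shCon, with shYap replicate 4 just below the highest shCon library (0.63 ± 0.19 (SE), edgeR adjusted p = 0.272). Pkm had 937, 898, 1657 and 631 CPM in shYap, against 637, 671, 687 and 699.6 CPM in shCon, and Pfkl had 77.3, 87.5, 155 and 69.3 CPM in shYap, against 38.9, 46.6, 45.2 and 76.9 CPM in shCon. For Pkm, shYap replicate 4 lay below every shCon library, and for Pfkl it did not exceed the highest shCon library. Eno2 had 5.68, 13.2, 47.8 and 10.8 CPM in shYap, against 16, 16.5, 14.3 and 7.94 CPM in shCon. Only replicate 3 exceeded the shCon libraries, and without it the difference was -0.45 (edgeR adjusted p = 0.561), opposite in sign to that with it (0.50 ± 0.59 (SE), edgeR adjusted p = 0.832). Aldoc had 3.9, 7.42, 4.99 and 6.8 CPM in shYap, against 1.45, 3.29, 2.27 and 9.2 CPM in shCon, highest in shCon replicate 4. Hk1 had 76.9 to 139 CPM in shYap and 73 to 88.3 CPM in shCon, Hk2 18.8 to 85.4 CPM in shYap and 22.8 to 26.9 CPM in shCon and Pfkp 23.6 to 72.5 CPM in shYap and 21 to 27.5 CPM in shCon. Rows named for copies held 38.5% of the counts of Pgk1 and its copies in this table, and with them added Pgk1 was at 1.03. For Eno1 and Pgam1 such rows held 30.3% and 17.4%.

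Among the flux regulators, Pfkfb3 had 17.3, 25.7, 74.5 and 20.7 CPM in shYap, against 32.3, 27.7, 24 and 34.6 CPM in shCon with a difference of 0.22 ± 0.44 (SE), edgeR adjusted p = 0.909. Replicate 3 was the highest library, and without it the difference was -0.46 (edgeR adjusted p = 0.298). Pdk1 had 37.1, 61.9, 200.5 and 34.8 CPM in shYap, against 36.7, 34.7, 35.7 and 44.9 CPM in shCon. Outside replicate 3 the groups overlapped (1.14 ± 0.53 (SE), edgeR adjusted p = 0.495), and without it the difference was 0.25. Pfkfb4, at 15.7 to 21 CPM in shYap and 17.7 to 20.8 CPM in shCon, was the member with a negative difference (-0.17 ± 0.14 (SE), edgeR adjusted p = 0.73).

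Neither alpha subunit was called. Hif1a had 168, 132, 177 and 88.8 CPM in shYap, against 118, 95.4, 112 and 111 CPM in shCon, with replicate 4 below all shCon libraries (0.37 ± 0.20 (SE), edgeR adjusted p = 0.575). Epas1 had 74.2, 119.9, 40.1 and 129.8 CPM in shYap, against 46.2, 53.3, 52.2 and 114 CPM in shCon. Replicate 3 was the lowest of all 8 libraries and shCon replicate 4 the highest of its group (0.46 ± 0.41 (SE), edgeR adjusted p = 0.76). No gene of the HIF machinery was at an unadjusted p under 0.05 (14 tested, median -0.02, 0 called in edgeR), against 10.9% of all genes.

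HIF targets outside glycolysis carried the largest differences. Bnip3 had 43.6, 91.3, 302 and 91.1 CPM in shYap, against 31.4, 29.3, 31.7 and 42.3 CPM in shCon. Each shYap library was above each shCon library, replicate 1 by little (1.97 ± 0.53 (SE), edgeR adjusted p = 0.224), and DESeq2 called it (1.97, adjusted p = 0.00479). Ndrg1 had 101, 116, 501 and 58.5 CPM in shYap, against 33.5, 33, 33.4 and 54.9 CPM in shCon, without overlap (2.33 ± 0.64 (SE), edgeR adjusted p = 0.233; DESeq2 2.33, adjusted p = 0.00347). Ankrd37 had 1.82, 6.16, 29.9 and 3.92 CPM in shYap, against 0.851, 1.62, 1.57 and 1.99 CPM in shCon. Its replicate 1 lay inside the shCon range (2.78 ± 0.83 (SE), edgeR adjusted p = 0.279; DESeq2 2.79, adjusted p = 0.00626). Without replicate 3 these differences were 1.18 for Bnip3, 1.27 for Ndrg1 and 1.41 for Ankrd37, with edgeR adjusted p of 0.145, 0.145 and 0.222.

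Vegfa had 119, 155, 332 and 81.9 CPM in shYap, against 70.5, 84.6, 80.3 and 98.6 CPM in shCon. Replicate 4 fell inside the shCon range (1.04 ± 0.39 (SE), edgeR adjusted p = 0.377). Mxi1 had 50.6, 62.3, 171 and 45 CPM in shYap, against 42.9, 37.2, 42.7 and 38.6 CPM in shCon, and Hilpda had 14.2, 18, 64.8 and 15 CPM in shYap, against 10.9, 10.4, 13.8 and 13.7 CPM in shCon. In both every shYap library was above shCon, by little in replicate 4 for Mxi1 and in replicate 1 for Hilpda. P4ha2 had 17.8, 24.2, 93.6 and 14 CPM in shYap, against 6.86, 9.92, 7.96 and 18.6 CPM in shCon, and Car9 had 2.48, 1.92, 5.44 and 1.9 CPM in shYap, against 2.45, 3.15, 2.27 and 2.13 CPM in shCon. Replicate 3 alone was far above shCon in both, and the difference of Car9 was 0.23 ± 0.37 (SE), edgeR adjusted p = 0.882 with it and -0.22 without it. The remaining HIF targets were Ddit4 (22.4 to 469 CPM in shYap and 19.2 to 36.6 CPM in shCon), Adm (2.13 to 20.6 CPM in shYap and 1.67 to 2.91 CPM in shCon), Egln3 (29.3 to 259.8 CPM in shYap and 31.1 to 48.6 CPM in shCon), Kdm3a (33.2 to 221 CPM in shYap and 34.1 to 42.4 CPM in shCon), Egln1 (68.6 to 214 CPM in shYap and 64.9 to 78.7 CPM in shCon), Bnip3l (61.8 to 169.7 CPM in shYap and 50.9 to 65.1 CPM in shCon) and P4ha1 (80.2 to 176 CPM in shYap and 62.1 to 96.9 CPM in shCon). Adm was called in DESeq2 (1.95, adjusted p = 0.0323) and in edgeR was at 1.94 ± 0.63 (SE), edgeR adjusted p = 0.317.

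Of the 30 further HIF targets 27 had a positive difference, against 8929 of 16571 genes tested. At an unadjusted p under 0.05 were 13, against 10.9% of all genes (median 0.69, against 0.03 over all genes, 0 called in edgeR). The smallest p were those of Angptl4 (1.81 ± 0.49, edgeR adjusted p = 0.228) and Ero1l (2.30 ± 0.63, 0.237), an oxidase of protein folding. Without shYap replicate 3 the median was 0.39 and 10 were at an unadjusted p under 0.05, against 14.3% of all genes. Pentose phosphate genes (median -0.01 over 7), genes of pyruvate use (0.11 over 15) and liver isozymes (0.32 over 10) had 0, 1 and 0 at an unadjusted p under 0.05. Over all genes this share was 10.9%, and edgeR called none of them. The gene of pyruvate use was Pdk4, a kinase that blocks pyruvate oxidation, with 6.29 to 54 CPM in shYap and 0.925 to 5.81 CPM in shCon (edgeR adjusted p = 0.257).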

How the data were processed

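Total RNA of whole tumours was sequenced in 18 libraries of 4 groups. The authors deposited estimated counts per gene in 2 tables that were quantified apart (10 libraries and 8 libraries). Per the submitters' processing notes, STAR 2.7.3a, Partek and DESeq2 were used, with GRCm38 and mm10. The gene annotation and the strand setting are not given in the sources used here. Of the deposited values, 59.7% (HFD and LFD) and 61.8% (shYap and shCon) were whole numbers. The estimated counts were rounded, genes were filtered with filterByExpr and scaled by trimmed means, and each table was fitted whole in edgeR 4.0.16 (R 4.3.3; quasi-likelihood F test, robust, Benjamini-Hochberg over all genes tested, threshold 0.05). Standard errors are the log2 fold change over the square root of F. The main edgeR fit was run on simulated counts with known changes, and the other steps were not. DESeq2 1.42.0, limma 3.58.1 (voom), other scalings and filters, a replicate block, a hepatocyte covariate, each library left out, and summed HFD pairs were alternatives; adding named copies of a gene was chosen after seeing the data. Close HFD pairs were summed because some HFD libraries lie close together (median absolute log2 difference 0.114 for replicates 1 and 2 and 0.106 for replicates 3 and 4). Replicates 1 and 5 lay at 0.11, closer than replicates 1 and 2. All HFD pairs lay between 0.106 and 0.167, so the summed pairs do not stand out from the others.

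The members and lists were chosen with earlier results of these data known. Values of every library are given for members called in at least 1 comparison and for Hif1a, Epas1, Vegfa, Car9, Slc2a1, Ldha, Pdk1 and Bnip3, and ranges for the rest; of other lists at most 4 genes are named, by p, except Pdp2, Pdk2 and fibroblast markers, which were chosen after their values were seen. Where shYap and shCon were quantified, 23 gene symbols had become dates in the deposited file, none of them a member. CPM per kilobase uses the union of exons in GENCODE M21. All 38 deposited gene ends lie 1 base above those of GENCODE.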

Additional observations from a re-analysis of the deposited data

Results flagged for a closer look

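A value was picked out where 1 library of a group lay far from the others by Dixon's criterion. Chance alone picks about 1 in 20 groups if the groups are independent. The groups here share the same libraries across genes, so that rate is no measure for their count. The share of groups picked out over all genes was not tested. Within shYap, replicate 3 was the highest library in 36.6% of all genes. Of 152 groups of values looked at, 26 held a library picked out in this way, and in 18 it was shYap replicate 3. In shYap replicate 3 these were the CPM of Gpi1 (1986), Aldoa (1824), Tpi1 (903), Gapdh (1909), Pgk1 (290), Hk1 (139) and Slc2a3 (7.88) among glycolytic enzymes and transporters, and of the regulators Pfkfb3 (74.5) and Pdk1 (200). Among HIF targets they were Ankrd37 (29.9), Kdm3a (221), Mxi1 (171), Car9 (5.44), Bnip3l (170), Ddit4 (469), Ndrg1 (501), Hilpda (64.8) and P4ha2 (93.6). All 18 were high values. In shCon replicate 4, Pgk1 (115), Pgam1 (335), Epas1 (114), Egln3 (48.6) and Ndrg1 (54.9) were high and Hk1 (73) was low. In LFD, Pdk1 was high in replicate 5 (109) and Ddit4 in replicate 2 (154).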

How the results depend on the processing

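With the hepatocyte covariate, 1 member was higher and 1 lower in HFD and 905 genes were called, and 1 gene was called in shYap. With close HFD pairs summed, 2 members were lower and 4233 genes called. DESeq2 called 8 members and 405 genes in shYap. With unscaled totals 19 members did not overlap between HFD and LFD and 5 between shYap and shCon. With RLE scaling these counts were 9 and 10, and with upper-quartile scaling 15 and 11. Leaving out 1 library gave 12 to 18 members higher, 4 to 5 lower, 5523 to 7253 genes called and 12 to 20 members not overlapping in HFD; in shYap it gave 0 to 1 members higher, 0 to 94 genes called and 10 to 21 not overlapping. The cause of these changes was not tested.

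Deviations of same-numbered libraries had correlations of -0.5 to 0.315 in the HFD and LFD table and -0.052 to 0.182 in the other. Those of libraries with unlike numbers spanned -0.477 to 0.517 and -0.437 to 0.458. Numbers here are the replicate numbers of the sample titles. The deposited column names skip 3 in shYap, so replicate 3 bears the number 4 there. Replicate 4 bears a number that no shCon library has. By column name shYap replicate 3 would pair with shCon replicate 4, at a correlation of -0.388, and shYap replicate 4 with none. These values show no common deviation by replicate number, but they cannot tell whether the numbers mark a shared cage or batch. With the replicate block 14 members were higher and 4 lower in HFD (4929 genes called), Pfkl missing the threshold (edgeR adjusted p = 0.0769), and 0 genes were called in shYap. A block by column number was not tested for shYap and shCon.

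Signs turned with the covariate for Slc16a3 (-0.13), Hk1 (-0.59), Aldoc (0.79), Ldha (0.62), Pfkfb4 (-0.52), Pdk1 (0.50), Epas1 (0.84), Kdm3a (-0.04), Vegfa (0.41), Bnip3 (0.62) and P4ha1 (-0.37), HFD over LFD. Near 0, Pfkp turned with upper-quartile scaling (0.07), no filter (0.02) and the block (0.01), and Pdk1 with these (0.09, 0.01 and 0.07) and voom (0.08). In shYap over shCon, Slc2a3 turned with upper-quartile scaling (-0.02), the block (-0.16) and voom (-0.18), and Pfkfb3 with the block (-0.06) and voom (-0.04). Leaving out 1 library gave ranges that cross 0 in HFD over LFD for Pfkp (-0.06 to 0.13), Pdk1 (-0.13 to 0.33) and Adm (-0.13 to 0.21), and in shYap over shCon for Slc2a3 (-0.61 to 0.24), Hk1 (-0.05 to 0.26), Eno2 (-0.45 to 0.80), Pfkfb3 (-0.46 to 0.44) and Car9 (-0.22 to 0.39). Low counts limit Adm, Car9, Slc2a3, Aldoc and Ankrd37, whose levels are a few CPM in most libraries.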
